A study of Mus musculus with 24 samples.

Results

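The genes described here are Trp53, which encodes the transcription factor p53, and 9 genes that p53 is known to activate: Mdm2, Ccng1, Phlda3, Trp53inp1, Cdkn1a, Pmaip1, Bbc3, Bax and Ei24. They were found by gene name in the scanner files, with every probe of each name, and form 10 of the 15298 gene names that passed the filter on dim probes. The array held 14 probes for them, and all 14 passed the filter. Where a gene had more than 1 probe, the brightest one stands for it and the others are given beside it.

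RNA came from RAW264.7 cells, a mouse macrophage-like line, that carried a construct either for Tbc1d23, a protein of the TBC family of Rab GTPase regulators, or for chloramphenicol acetyltransferase (CAT), a bacterial enzyme used as the control. Each line was sampled without lipopolysaccharide (LPS, the bacterial ligand of TLR4; 0 h) and after 1, 3 and 5 h in 20 ng/ml LPS, with 3 arrays for each of the 8 groups: the Tbc1d23 line at 0, 1, 3 and 5 h and the CAT line at 0, 1, 3 and 5 h. All cells were grown in medium with 400 µg/ml of the selection drug G418. The sample titles name the lines Tbc1d23 overexpression and CAT overexpression. The comparison of the lines asks how the macrophage response to LPS differs with the Tbc1d23 construct. There was 1 line for each construct, and the sources used here give neither the promoter that drives the construct nor whether a line is 1 clone. The design text calls the replicates biological but names no separate cultures, and every p-value therefore reflects only how far these arrays differ, which may be technical.

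p53 is a transcription factor that is held at a low level in unstressed cells by Mdm2, a ubiquitin ligase that marks it for degradation. DNA damage and other stress stabilise the p53 protein, which then activates genes for cell cycle arrest, repair and apoptosis. Mdm2 is itself such a target, so the pathway carries its own negative feedback. The amount of p53 protein, which arrays do not measure, is set mainly by its degradation and much less by its transcript.

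To show the control regions of the members that differed most between the lines, the 250 bases before the start of 4 of them are given below in the direction of transcription, with matches to the p53 half-site consensus in capitals. RefSeq's promoter table (GRCm38.p6) held 11 starts for 8 of the 10 genes.
Phlda3, chr1:135765835-135766084, plus strand: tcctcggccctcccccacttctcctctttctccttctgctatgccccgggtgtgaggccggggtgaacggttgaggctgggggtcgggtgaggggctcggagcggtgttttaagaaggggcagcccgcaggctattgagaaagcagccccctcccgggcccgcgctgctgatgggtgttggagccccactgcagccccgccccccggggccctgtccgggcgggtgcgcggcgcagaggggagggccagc
Ccng1, chr11:40755287-40755536, minus strand: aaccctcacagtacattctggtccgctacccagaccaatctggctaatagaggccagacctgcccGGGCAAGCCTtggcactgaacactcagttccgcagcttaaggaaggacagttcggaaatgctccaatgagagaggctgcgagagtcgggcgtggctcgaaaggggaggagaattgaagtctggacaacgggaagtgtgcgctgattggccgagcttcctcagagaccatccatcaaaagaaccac
Mdm2, chr10:117710759-117711008, minus strand: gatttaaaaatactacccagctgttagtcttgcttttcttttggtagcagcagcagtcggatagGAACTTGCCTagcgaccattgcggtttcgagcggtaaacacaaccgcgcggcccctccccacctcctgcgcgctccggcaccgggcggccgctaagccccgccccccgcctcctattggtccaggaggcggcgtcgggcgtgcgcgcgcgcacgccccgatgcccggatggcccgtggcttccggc
Cdkn1a, chr17:29090729-29090978, plus strand: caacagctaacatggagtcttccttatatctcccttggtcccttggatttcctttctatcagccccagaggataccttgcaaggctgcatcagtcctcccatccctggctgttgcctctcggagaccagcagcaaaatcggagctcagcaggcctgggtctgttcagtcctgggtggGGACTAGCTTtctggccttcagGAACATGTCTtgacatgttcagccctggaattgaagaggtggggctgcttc
The consensus is 10 letters long and reads the same on both strands. A match was found before a start of 6 of the 8 genes: in Cdkn1a 73 and 51 bases before the upstream of its 2 starts, in Ccng1 185, Mdm2 186, Bax 201, Trp53 75 and Ei24 10 bases before the start. In Phlda3 and in the 3 starts of Bbc3 these letters were not in this window. Counted by start, as the shares below are, 6 of the 11 held a match. Among all 32851 RefSeq promoters, a share of 7.13% held at least 1 match, and 0.0639% held 2 matches separated by at most 13 bases, as the Cdkn1a window did. Matches are given as a description of the sequence.

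Each value is a log2 signal from which the 75th percentile of its array was subtracted, called the level below. A level is read only within a probe, since levels of different probes are not on a common scale. Differences carry the standard error of a limma fit over all 24 arrays (n = 3 arrays per group) and are called at an adjusted p under 0.05. On the arrays 42.2 to 69.7% of spots were well above background. Both extremes were arrays of the Tbc1d23 line at 0 h, replicate 2 the lowest and replicate 1 the highest. The CAT arrays had 48.8 to 54.3%. The member probes were well above background on all 24 arrays for 12 of the 14, and both exceptions belong to Trp53inp1. The number of arrays limits the precision.

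The construct's own gene was not called between the lines at 0 h. The brightest Tbc1d23 probe differed by a log2 of 0.03 ± 0.21 between the lines at 0 h (limma adjusted p = 0.933), and a dimmer probe by 0.35 ± 0.18 (adjusted p = 0.114). The dimmer probe was called higher in the Tbc1d23 line at 3 h (1.00 ± 0.18, adjusted p = 0.000113) and 5 h (0.49 ± 0.18, adjusted p = 0.0261), and the brightest probe at no time. Which part of Tbc1d23 the construct carries is not stated in the labels, so the lines are named by their labels only. Of 12 macrophage markers 10 were well above background on all arrays of both lines at 0 h, and their summed linear signal was 1034 to 1462 times the 75th percentile in the Tbc1d23 line and 1358 to 1447 in the CAT line. Of the 10 measured, 2 were called higher in the Tbc1d23 line at 0 h (Cd14, log2 0.87 ± 0.13, and Itgam, 0.76 ± 0.21) and 4 lower (Cx3cr1, -3.80 ± 0.15, Adgre1, -2.67 ± 0.20, Spi1, -1.04 ± 0.22, and Csf1r, -0.92 ± 0.24). Of 6 T and NK cell markers 3 were well above background in both lines, with summed signals of 2.90 to 3.42 in the Tbc1d23 line and 0.600 to 1.01 in the CAT line. Cd3d was above background on no array of either line at 0 h, nor were Cd3g and Ncr1 in the CAT line. Of 6 B cell markers 1 was well above background on all arrays of each line, with summed signals of 0.908 to 1.81 in the Tbc1d23 line and 0.228 to 0.470 in the CAT line, where Vpreb1, Cd79b, Ms4a1 and Pax5 were above background on no array. The part of these marker differences in the results below was not tested.

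Before LPS, p53 target genes were higher in the Tbc1d23 line than in the CAT line, while Trp53 itself was not called. Phlda3 was 24.2 times as high, Ccng1 8.97 times, Cdkn1a 7.34 times, Mdm2 6.75 times and Trp53inp1 4.33 times. Bbc3 and Ei24 were higher by smaller amounts, and Pmaip1 and Bax were not called. In all, 7 of the 10 genes were called higher and 0 lower. Of all gene names 25.0% were called higher and 20.1% lower in that comparison, and the median difference was 1.54 for the 10 genes and 0.09 for all gene names. The 10 genes and the further gene lists were chosen with earlier results of these data known. Their counts and medians beside those of all gene names, here and below, are therefore a description and not a test.

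**Figure D1:**
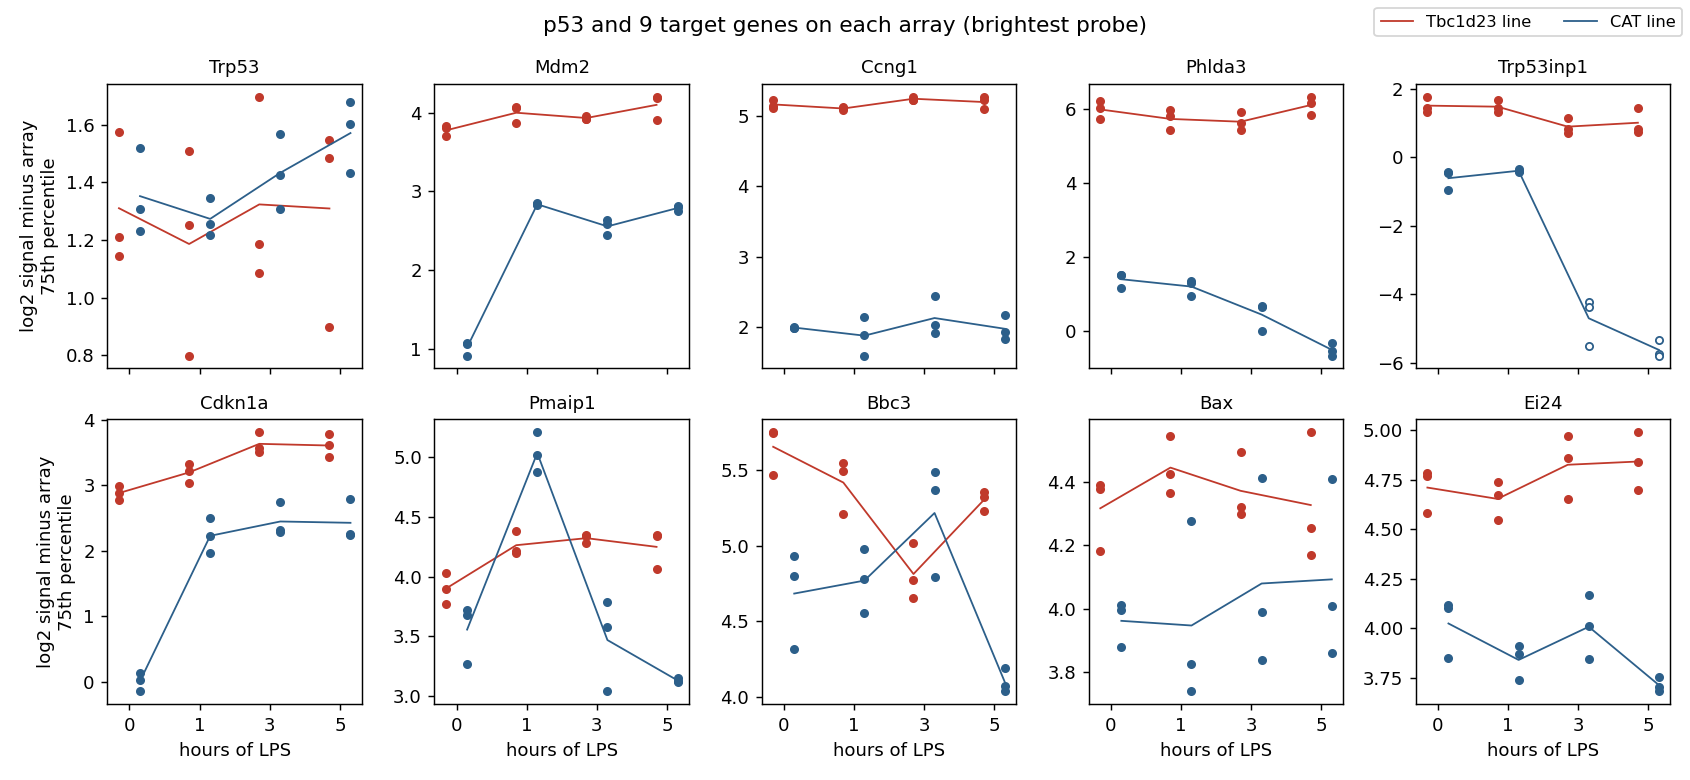
Level (log2 signal minus the array's 75th percentile, vertical axis) of p53 and 9 target genes against hours of LPS, 1 panel per gene with its own scale. Points are arrays (3 per group), open where the probe was not well above background, and lines join group means of the Tbc1d23 line (red) and the CAT line (blue); Ccng1 stays at 5.09 to 5.27 on all Tbc1d23 arrays and 1.60 to 2.45 on all CAT arrays.

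The Trp53 transcript did not separate the lines. Its brightest probe (A_52_P781398, chromosome 11, 69393959 to 69394017, mm9) read 1.21, 1.15 and 1.57 in the Tbc1d23 line at 0 h and 1.31, 1.23 and 1.52 in the CAT line, a difference of -0.04 ± 0.20 (limma adjusted p = 0.888). The arrays of the lines overlapped at each time. The other Trp53 probe (A_52_P491849, 69403134 to 69403193), printed in 10 spots per array, differed by 0.24 ± 0.19 at 0 h (adjusted p = 0.327). At 5 h that probe was called higher in the Tbc1d23 line by 0.46 ± 0.19 (adjusted p = 0.0469), whereas the brightest probe gave -0.26 ± 0.20 (adjusted p = 0.283), so the 2 probes do not give the same sign in this fit. The sign of the brightest probe depended on the runs of slides described below. With the run as a block it gave 0.26 ± 0.15 at 0 h and 0.04 ± 0.15 at 5 h, neither called. Within the run that held both lines it gave 0.22 and -0.03.

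Among the genes that feed back on p53 or act beside it, Mdm2 stood apart on every array. Its brightest probe (A_52_P469842, chromosome 10, 117126278 to 117126337) read 3.70, 3.80 and 3.83 in the Tbc1d23 line at 0 h and 1.08, 0.92 and 1.07 in the CAT line. The difference was 2.75 ± 0.09 (adjusted p = 6.56e-14), and the other probe (A_51_P201346, 117129725 to 117129784) gave 2.87 ± 0.15. No array of one line came near the other line.

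Ccng1 encodes cyclin G1, which binds protein phosphatase 2A and acts on Mdm2. Its brightest probe (A_51_P161612, chromosome 11, 40564413 to 40564472) read 5.15, 5.23 and 5.11 in the Tbc1d23 line at 0 h, against 2.00 on each of the 3 CAT arrays, a difference of 3.17 ± 0.13 (adjusted p = 1.56e-12). A second probe of the gene (A_52_P612803, 40562427 to 40562486) gave a smaller difference of 1.43 ± 0.15 (adjusted p = 2.89e-07), so the direction is shared by the probes and the size is not.

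Phlda3 encodes a pleckstrin-homology protein that restrains AKT. Its probe (A_51_P329928, chromosome 1, 137665642 to 137665701) read 5.75, 6.03 and 6.22 in the Tbc1d23 line at 0 h and 1.16, 1.52 and 1.52 in the CAT line. The difference of 4.60 ± 0.21 was the largest of the 10 genes at rest (adjusted p = 3.35e-12).

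Trp53inp1 encodes a stress protein that promotes p53 phosphorylation and autophagy. Its brightest probe (A_51_P175580, chromosome 4, 11101174 to 11101233) read 1.31, 1.44 and 1.77 in the Tbc1d23 line at 0 h and -0.95, -0.46 and -0.43 in the CAT line, a difference of 2.11 ± 0.27 (adjusted p = 4.24e-06). The dimmer probe (A_52_P503387, 11098180 to 11098239) gave 0.97 ± 0.30 (adjusted p = 0.0119), and it was not well above background on any CAT array at 0 h.

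Cdkn1a encodes p21, the inhibitor of cyclin-dependent kinases through which p53 arrests the cell cycle. Its probe (A_51_P363947, chromosome 17, 29237377 to 29237436), in 10 spots per array, read 2.77, 2.88 and 3.00 in the Tbc1d23 line at 0 h and 0.14, -0.15 and 0.03 in the CAT line. The difference was 2.88 ± 0.17 (adjusted p = 1.95e-10), with the lines fully apart.

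The genes of the apoptotic arm differed less. Bbc3, which encodes the BH3-only protein PUMA, read 5.47, 5.75 and 5.75 in the Tbc1d23 line at 0 h and 4.32, 4.93 and 4.80 in the CAT line (probe A_51_P248122, chromosome 7, 16903403 to 16903462), a difference of 0.97 ± 0.18 (adjusted p = 0.000236). Ei24, which encodes an endoplasmic reticulum protein with a part in autophagy, read 4.58, 4.78 and 4.77 in the Tbc1d23 line, against 3.85, 4.12 and 4.10 in the CAT line (A_51_P472751, chromosome 9, 36586740 to 36586762), a difference of 0.69 ± 0.11 (adjusted p = 7.55e-05). Both genes lay higher on all 3 Tbc1d23 arrays than on any CAT array.

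Pmaip1, which encodes the BH3-only protein NOXA, read 3.78, 4.03 and 3.90 in the Tbc1d23 line and 3.27, 3.68 and 3.72 in the CAT line (A_51_P477121, chromosome 18, 66625088 to 66625147). Its difference of 0.34 ± 0.16 was not called (adjusted p = 0.0881). Bax, the pore-forming effector on which the BH3-only proteins act, read 4.18, 4.38 and 4.39 in the Tbc1d23 line and 3.99, 3.88 and 4.01 in the CAT line (A_51_P254541, chromosome 7, 52721469 to 52721624). Its difference was 0.36 ± 0.17 (adjusted p = 0.0943), and although the arrays of the lines did not overlap for either gene, neither difference passed the test.

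Arrays of the Tbc1d23 line lay in 2 serial runs of slides, replicates 1 and 2 in one run and replicate 3, with all CAT slides, in the other. Within the run that held both lines the Tbc1d23 line has 1 array per time, which is assumed to vary like the CAT groups. The differences there at 0 h were 4.82 ± 0.28 for Phlda3, 3.12 ± 0.24 for Ccng1, 2.81 ± 0.12 for Mdm2, 2.99 ± 0.28 for Cdkn1a and 2.38 ± 0.43 for Trp53inp1. With the run as a block the values were 4.83, 3.16, 2.82, 2.98 and 2.40, and Bax was called as well (0.49 ± 0.18, adjusted p = 0.029). Scaling to the array median in place of the 75th percentile ended the calls of Bbc3 (0.42, adjusted p = 0.345) and Ei24 (0.14, adjusted p = 0.766). Without CAT 3 h replicate 3, Pmaip1 at 0 h was called at the same difference of 0.34 (adjusted p = 0.0342).

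Under LPS the lines kept their distance in some of these genes and drew closer in others. At 1 h 8 of the 10 genes were called higher in the Tbc1d23 line and 1 lower (24.6% and 21.1% of all gene names), at 3 h 7 higher (27.3%) and at 5 h 8 higher (30.0%). The medians of the 10 differences were 0.89, 1.02 and 1.19 at 1, 3 and 5 h, against 0.06, 0.05 and 0.10 for all gene names. Differences called and at least 2-fold in size numbered 5, 4, 5 and 8 at 0, 1, 3 and 5 h, where 18.5%, 19.2%, 24.5% and 27.1% of all gene names were so called in either direction.

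**Figure D2:**
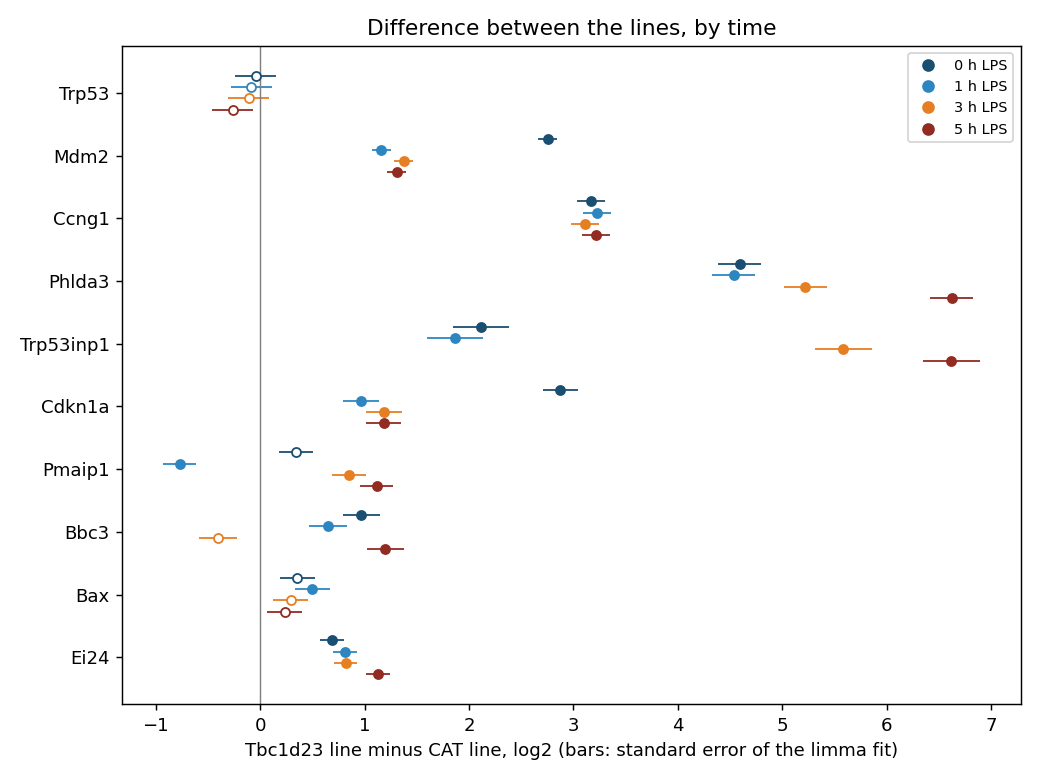
Tbc1d23 line minus CAT line (horizontal axis, log2) for the brightest probe of each gene at 0, 1, 3 and 5 h of LPS. Points are differences of 2 group means of 3 arrays, filled where called (adjusted p under 0.05), and bars are standard errors of the limma fit; Ccng1 holds at 3.11 to 3.22, Mdm2 and Cdkn1a drop after 0 h, and Phlda3 reaches 6.62 at 5 h. The Trp53inp1 points at 3 and 5 h are fitted values against CAT arrays not well above background, where only at least 43.6-fold and at least 45.7-fold can be stated.

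By the brightest probes Ccng1 was the steadiest, with differences of 3.22, 3.11 and 3.22 at 1, 3 and 5 h. Its second probe varied more, with 1.53, 1.38 and 1.77 (± 0.15). Mdm2 differed by 1.16, 1.38 and 1.31 (± 0.09) and Cdkn1a by 0.97, 1.19 and 1.18 (± 0.17) at those times, less than their 2.75 and 2.88 at rest. Phlda3 and Trp53inp1 showed the opposite course: Phlda3 differed by 4.54, 5.22 and 6.62 (± 0.21), and Trp53inp1 by 1.87 ± 0.27 at 1 h and was at least 43.6-fold and at least 45.7-fold higher at 3 and 5 h. These bounds compare the Tbc1d23 mean with the higher of the CAT probe signal and the lowest signal well above background on each CAT array, since the probe was not well above background on any CAT array at 3 or 5 h. Ei24 differed by 0.81, 0.82 and 1.13 (± 0.11).

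Of the BH3-only genes, Pmaip1 changed order between the lines by called differences, and Bbc3 did not. Pmaip1 was lower in the Tbc1d23 line at 1 h by a log2 of -0.77 ± 0.16 (limma adjusted p = 0.000656) and higher at 3 and 5 h by 0.85 and 1.12 (± 0.16). Bbc3 was higher by 0.65 ± 0.18 at 1 h and 1.20 ± 0.18 at 5 h, while its difference at 3 h was -0.40 ± 0.18 (adjusted p = 0.0713). That 3 h difference of Bbc3 was called on leaving out CAT 0 h replicate 1 (-0.40, adjusted p = 0.0469), CAT 3 h replicate 3 (-0.61, adjusted p = 0.00756) or Tbc1d23 3 h replicate 3 (-0.50, adjusted p = 0.0442). Quantile normalization gave -0.49 (adjusted p = 0.00357). With the run of slides as a block the value was smaller (-0.29 ± 0.19, limma adjusted p = 0.222). Within the run that held both lines it was -0.20. The arrays of the lines overlapped at 3 h, so a reversal of Bbc3 depends on the setting.

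Bax was called at 1 h only, by 0.50 ± 0.17 (adjusted p = 0.0214). The call was lost without CAT 1 h replicate 2 (0.44, adjusted p = 0.0771) or replicate 3 (0.40, adjusted p = 0.103), or without Tbc1d23 1 h replicate 3 (0.45, adjusted p = 0.0652). Without CAT 3 h replicate 1 the 3 h difference of Bax, 0.29 ± 0.17 on all arrays (adjusted p = 0.159), was called at 0.46 (adjusted p = 0.0351). Within the run that held both lines the 1 h difference of Bax was 0.60 (adjusted p = 0.128) and that of Bbc3 0.78 (adjusted p = 0.0662). Scaling to the array median left 4 genes called at 1 h, given without the share of all gene names called under that scaling. It ended the 1 h calls of Cdkn1a (0.85, adjusted p = 0.0895), Pmaip1 (-0.89, adjusted p = 0.0644), Bbc3 (0.53, adjusted p = 0.286), Ei24 (0.70, adjusted p = 0.134) and Bax (0.38, adjusted p = 0.486). It also ended those of Pmaip1 at 3 h (0.88, adjusted p = 0.0534) and 5 h (0.87, adjusted p = 0.0536) and of Ei24 at 3 h (0.85, adjusted p = 0.0517).

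In the CAT line, LPS moved the 10 genes in different directions. Mdm2 and Cdkn1a rose within 1 h and stayed high, Pmaip1 rose at 1 h and was below its resting level at 5 h, and Phlda3 and Trp53inp1 fell. At 1 h 3 genes were called higher and 0 lower, where 7.60% of all gene names were called in either direction. At 3 h 3 were higher and 2 lower, against 35.0% of all gene names, and at 5 h 2 were higher and 5 lower, against 41.7% in either direction, 18.3% higher and 23.4% lower. The median of the 10 responses was near 0 at each time: 0.04, 0.10 and -0.16 at 1, 3 and 5 h. Within each slide the LPS time was always the same position, so time and position on the slide cannot be told apart.

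**Figure D3:**
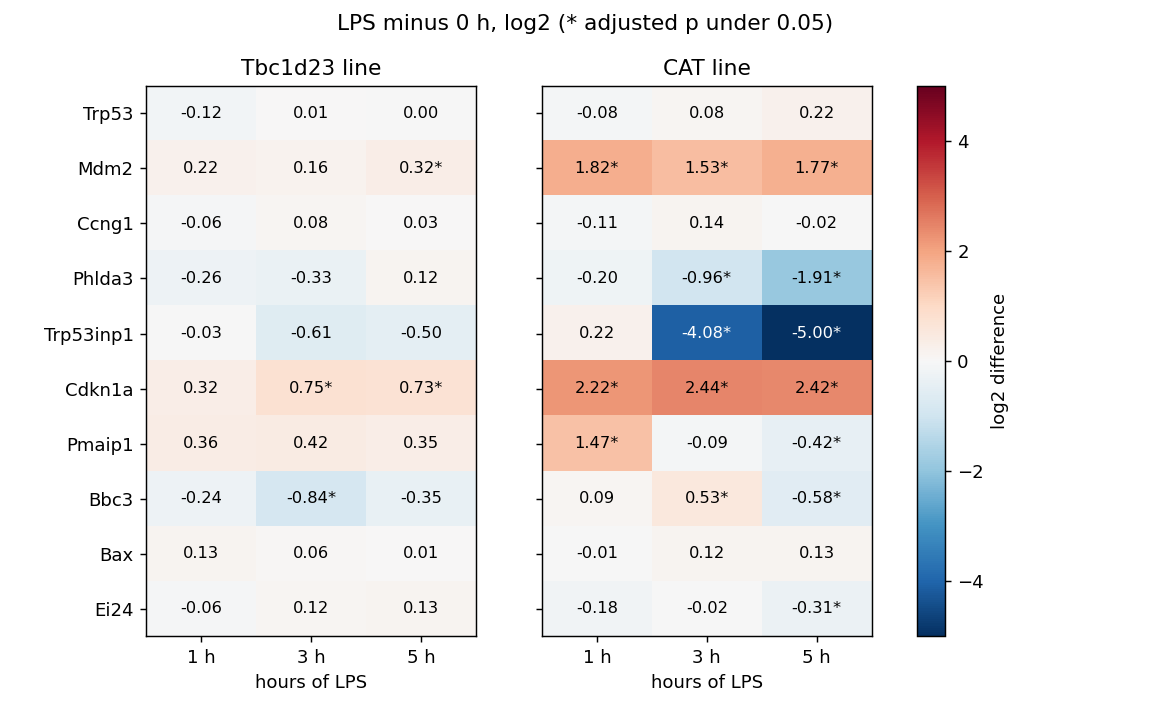
LPS minus 0 h on the log2 scale at 1, 3 and 5 h in the Tbc1d23 line (left) and the CAT line (right), brightest probe of each gene, with values printed in the cells and called ones marked by an asterisk. In the CAT line Mdm2 and Cdkn1a are raised and Phlda3 and Trp53inp1 lowered; in the Tbc1d23 line no value goes beyond 0.84 in size. The Trp53inp1 cells of the CAT line at 3 and 5 h are fitted values of arrays not well above background.

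Mdm2 in the CAT line read 2.82, 2.85 and 2.84 at 1 h, against 1.08, 0.92 and 1.07 at 0 h. The rises were 1.82, 1.53 and 1.77 (± 0.09) at 1, 3 and 5 h, and the second Mdm2 probe gave 2.09, 1.75 and 1.79 (± 0.15). At no time did an LPS array of the CAT line reach the resting level of the Tbc1d23 line, 3.70 or more.

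Cdkn1a in the CAT line read 2.50, 1.96 and 2.23 at 1 h, against 0.14, -0.15 and 0.03 at 0 h. The rises were 2.22, 2.44 and 2.42 (± 0.17) at 1, 3 and 5 h, the last with an adjusted p of 9.61e-10. At 5 h its arrays read 2.79, 2.24 and 2.26, and 1 of the 3 lay above the lowest resting Tbc1d23 array (2.77).

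Phlda3 in the CAT line read 0.64, 0.69 and 0.01 at 3 h and -0.31, -0.55 and -0.66 at 5 h, against 1.16, 1.52 and 1.52 at 0 h. The falls were -0.96 ± 0.21 (adjusted p = 0.00105) and -1.91 ± 0.21 (adjusted p = 3.24e-07). Scaling to the array median left the 3 h value at -0.98 (adjusted p = 0.0647).

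Trp53inp1 in the CAT line read -0.44, -0.35 and -0.40 at 1 h, -4.21, -4.36 and -5.51 at 3 h and -5.74, -5.33 and -5.78 at 5 h. At 3 and 5 h those arrays were not well above background, and the gene was at least 15.4-fold and at least 14.9-fold lower than at 0 h (adjusted p = 5.35e-10 and 2.1e-11). Its dimmer probe was also called lower at 3 h (-1.75 ± 0.30) and 5 h (-1.42 ± 0.30), although it was not well above background in any of those 3 groups. Ccng1, by contrast, was not called at any time, with responses of -0.11, 0.14 and -0.02 (± 0.13).

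Pmaip1 in the CAT line read 5.02, 5.20 and 4.87 at 1 h, against 3.27, 3.68 and 3.72 at 0 h. It was higher by 1.47 ± 0.16 at 1 h (adjusted p = 1.92e-06), differed by -0.09 ± 0.16 at 3 h, and was lower by -0.42 ± 0.16 at 5 h (adjusted p = 0.0385). The 5 h call was lost without CAT 0 h replicate 2 (-0.36, adjusted p = 0.132) or 3 (-0.34, adjusted p = 0.147), and without CAT 5 h replicate 1 (-0.42, adjusted p = 0.0841), 2 (-0.42, adjusted p = 0.0812) or 3 (-0.43, adjusted p = 0.0748).

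Bbc3 in the CAT line was higher by 0.53 ± 0.18 at 3 h (adjusted p = 0.0264), and it was lower at 5 h (-0.58 ± 0.18, adjusted p = 0.0132). The 3 h arrays, 5.48, 5.37 and 4.79, overlapped those of 0 h, and the call was lost without CAT 0 h replicate 1 (0.35, adjusted p = 0.169) or CAT 3 h replicate 1 (0.40, adjusted p = 0.137) or 2 (0.46, adjusted p = 0.104). The 5 h call was lost without CAT 0 h replicate 2 (-0.46, adjusted p = 0.0776) or 3 (-0.52, adjusted p = 0.053). Ei24 was lower by -0.31 ± 0.11 at 5 h (adjusted p = 0.0346), a call lost without any 1 of 5 arrays: CAT 0 h replicate 2 (-0.26, adjusted p = 0.125) or 3 (-0.27, adjusted p = 0.113), and CAT 5 h replicate 1 (-0.30, adjusted p = 0.0869), 2 (-0.33, adjusted p = 0.0569) or 3 (-0.31, adjusted p = 0.0796). With array-median scaling the calls were lost for Bbc3 at 3 h (0.51, adjusted p = 0.401) and 5 h (-0.62, adjusted p = 0.22), for Pmaip1 at 5 h (-0.46, adjusted p = 0.408) and for Ei24 at 5 h (-0.35, adjusted p = 0.546). Bax and Trp53 were not called at any time.

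In the Tbc1d23 line few of the 10 genes were called after LPS. At 1 h 0 were called (1.69% of all gene names in either direction), at 3 h 1 higher and 1 lower (6.72%) and at 5 h 2 higher and 0 lower (6.13% in either direction, 2.95% higher and 3.18% lower). At an unadjusted p under 0.05, 2, 4 and 3 of the 10 passed at 1, 3 and 5 h. Of all gene names 7.52%, 16.3% and 15.2% passed at those times. The called genes were Cdkn1a at 3 and 5 h, Bbc3 at 3 h and Mdm2 at 5 h. Pmaip1 was not called, with responses of 0.36, 0.42 and 0.35 (± 0.16), although its LPS arrays did not overlap those of 0 h. With the slide as a random block it was called at 3 h (limma adjusted p = 0.0406).

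Cdkn1a read 3.58, 3.52 and 3.81 at 3 h and 3.43, 3.79 and 3.62 at 5 h in the Tbc1d23 line, against 2.77, 2.88 and 3.00 at 0 h. The rises of 0.75 ± 0.17 (adjusted p = 0.00971) and 0.73 ± 0.17 (adjusted p = 0.0136) came from arrays that lay above every 0 h array. The 3 h call was lost without Tbc1d23 3 h replicate 3 (0.67, adjusted p = 0.0528), and the 5 h call without Tbc1d23 0 h replicate 1 (0.67, adjusted p = 0.0592) or Tbc1d23 5 h replicate 2 (0.64, adjusted p = 0.0812).

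Bbc3 read 4.65, 4.77 and 5.02 at 3 h, against 5.47, 5.75 and 5.75 at 0 h, a fall of -0.84 ± 0.18 (adjusted p = 0.00596). Array-median scaling ended this call (-0.29, adjusted p = 0.526), and also the 5 h calls of Cdkn1a (0.98, adjusted p = 0.323) and Mdm2 (0.58, adjusted p = 0.862). Mdm2 read 3.91, 4.18 and 4.20 at 5 h, against 3.70, 3.80 and 3.83 at 0 h. Its rise of 0.32 ± 0.09 passed narrowly (adjusted p = 0.0431), and leaving out any 1 of 15 arrays of either line ended the call, with values of 0.27 to 0.35 and adjusted p-values of 0.0512 to 0.182. The second Mdm2 probe rose by 0.59 ± 0.15 (adjusted p = 0.0239). With only the groups compared in the fit, 0 genes were called at 3 h and 0 at 5 h. The differences of Cdkn1a, Bbc3 and Mdm2 were unchanged in that fit, which holds fewer arrays. The share of all gene names called in it is not given, so the lost calls cannot be read as particular to these genes.

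The difference between the LPS responses of the lines was tested as an interaction, Tbc1d23 response minus CAT response. It was called for 3 of the 10 genes at 1 h (2.35% of all gene names), 4 at 3 h (16.4%) and 5 at 5 h (23.0%). On the log2 scale Cdkn1a and Mdm2 gained less in the Tbc1d23 line at all 3 times, and Trp53inp1 fell less there at 3 and 5 h. Phlda3 fell in the CAT line at 5 h and differed by 0.12 ± 0.21 in the Tbc1d23 line, not called. These log2 responses start from resting levels that differed between the lines, so they do not compare the amounts of signal gained or lost.

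For Mdm2 the interaction was -1.59, -1.38 and -1.44 (± 0.13) at 1, 3 and 5 h, and its second probe gave -1.73, -1.42 and -1.20 (± 0.21), each called. For Cdkn1a it was -1.91, -1.69 and -1.69 (± 0.24). In Phlda3 the interaction reached 2.03 ± 0.29 at 5 h (adjusted p = 3.16e-05) and was 0.63 ± 0.29 at 3 h (adjusted p = 0.182). In Trp53inp1 it was called at 3 and 5 h (adjusted p = 2.38e-06 and 4.83e-08), but since the CAT arrays there were not well above background its size is only a bound, at least 3.33 at 3 h and at least 3.40 at 5 h.

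Pmaip1 differed in its response by -1.11 ± 0.22 at 1 h (adjusted p = 0.0072) and, at 5 h, by 0.77 ± 0.22 (adjusted p = 0.0168), and Bbc3 by -1.37 ± 0.25 at 3 h (adjusted p = 0.000688). For Pmaip1 at 3 h the interaction of 0.51 ± 0.22 was not called (adjusted p = 0.154), though it was without CAT 3 h replicate 1 (0.67, adjusted p = 0.043). For Ccng1 the interactions were 0.06, -0.06 and 0.05 (± 0.19), and for Trp53 and Bax none was called.

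Same-slide arrays deviated together in the Tbc1d23 line (median correlation 0.664) and, at a lower median of 0.511, in the CAT line. With the replicate as a block within each line, Phlda3 at 3 h (0.63, adjusted p = 0.0236) and Ei24 at 5 h (0.44, adjusted p = 0.00803) were also called. Without the block, Ei24 differed by 0.44 ± 0.16 (adjusted p = 0.0567), and it was called without CAT 0 h replicate 1 (0.53, adjusted p = 0.0255), CAT 3 h replicate 1 (0.44, adjusted p = 0.048) or 3 (0.44, adjusted p = 0.0482), Tbc1d23 3 h replicate 1 (0.44, adjusted p = 0.0499) or Tbc1d23 5 h replicate 1 (0.52, adjusted p = 0.0355). Scaling to the array median left 0, 1 and 2 genes called at 1, 3 and 5 h, Trp53inp1 at 3 and 5 h and Phlda3 at 5 h. The share of all gene names called under that scaling is not given, so the lost calls cannot be read as particular to these genes. With it all 6 interactions of Mdm2 and Cdkn1a lost their call: Mdm2 gave -1.16, -0.80 and -1.15 (adjusted p = 0.643, 0.303 and 0.131) and Cdkn1a -1.48, -1.11 and -1.40 (adjusted p = 0.401, 0.191 and 0.0869). Those of Pmaip1 at 1 h (-0.69, adjusted p = 0.726) and 5 h (1.07, adjusted p = 0.209) and of Bbc3 at 3 h (-0.80, adjusted p = 0.33) were lost as well.

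Among 37 other measured p53 target genes, of 40 listed, 19 were called higher and 7 lower in the Tbc1d23 line at 0 h, with a median of 0.47 (0.09 over all gene names). The shares over all gene names were 25.0% higher and 20.1% lower, so the share of the list called lower was near that of all gene names. Plk2, a polo-like kinase, was higher by 4.08 ± 0.36, Sesn2, a sestrin that restrains mTORC1, by 3.01 ± 0.19, and Gls2, a mitochondrial glutaminase, by 2.65 ± 0.19. The death receptor Eda2r was at least 4.1-fold higher, and Cpt1c was higher by 3.23 ± 0.41 but well above background on only 2 arrays of the Tbc1d23 line and on none of the CAT line. Dram1, a lysosomal autophagy protein, went the other way (-2.63 ± 0.17), as did the sestrin Sesn1 (-1.28 ± 0.21). At 5 h 19 were higher and 9 lower, where 30.0% of all gene names were higher and 23.4% lower.

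At 5 h of LPS 3 of these 37 rose and 0 fell in the Tbc1d23 line (2.95% and 3.18% of all gene names), and 13 rose and 10 fell in the CAT line (18.3% and 23.4% of all gene names). The death receptor Fas rose by 3.07 ± 0.23 in the Tbc1d23 line, where 2 of the 3 arrays at 0 h were well above background, and by 7.73 ± 0.23 in the CAT line. Plk2 (3.14 ± 0.36) and Gadd45a (2.59 ± 0.23) rose in the CAT line, while Sesn1 (-3.84 ± 0.21) and Psrc1 (-2.79 ± 0.19) fell there. The interactions at 5 h were called for Fas (-4.66 ± 0.33), Plk2 (-2.40 ± 0.50), Gadd45a (-2.04 ± 0.33), Sesn1 (3.85 ± 0.30) and Psrc1 (2.73 ± 0.27).

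**Figure D4:**
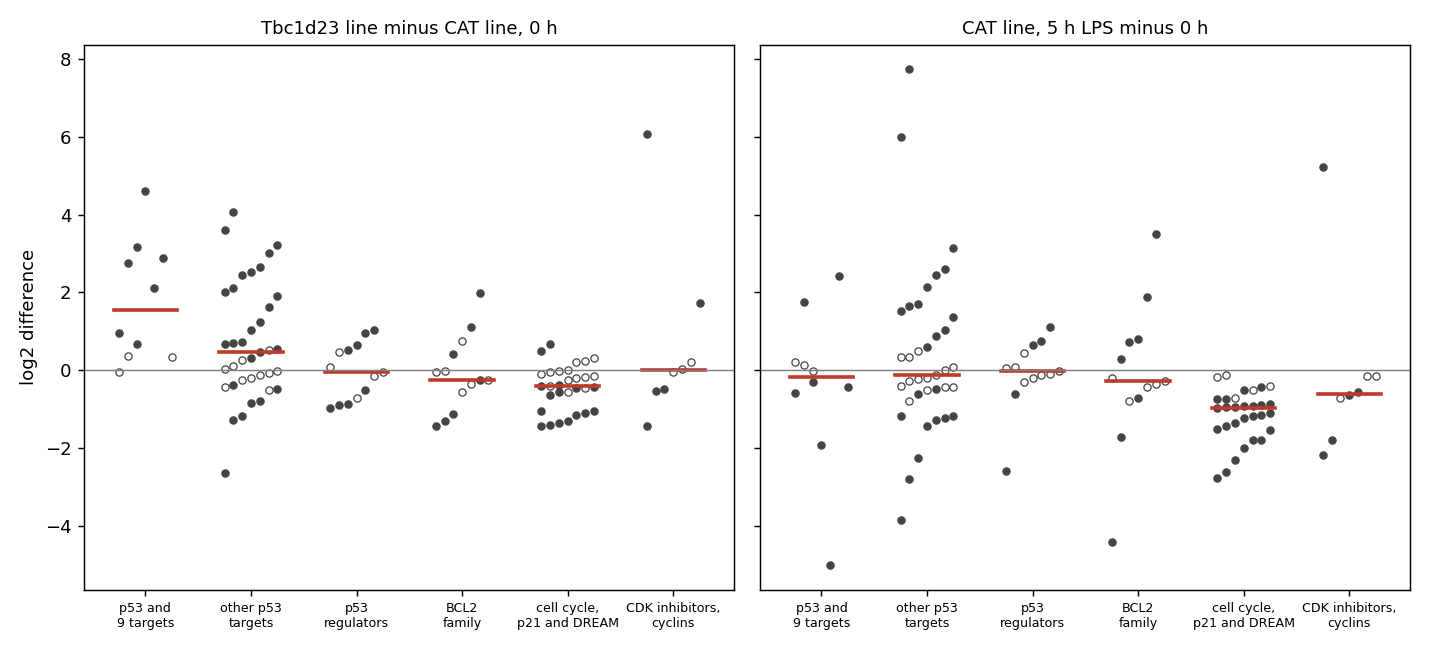
Log2 differences of the 10 genes and of 5 further lists (1 point per gene, brightest probe, filled where called, red bar at the list's median) for the difference between the Tbc1d23 and CAT lines at 0 h (left) and the CAT line at 5 h of LPS minus 0 h (right). The median of the 10 genes is 1.54 on the left and -0.16 on the right, and that of the cell cycle genes -0.41 and -0.96.

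Genes of the cell cycle that p21 is known to lower, through the repressive DREAM complex, were called lower more often than higher at rest. Of 30 measured, 14 were called lower and 2 higher in the Tbc1d23 line at 0 h (median -0.41), where 20.1% of all gene names were lower and 25.0% higher, with the transcription factor Foxm1 at -1.43 ± 0.21, the spindle checkpoint kinase Bub1b at -1.41 ± 0.18 and the topoisomerase Top2a at -1.36 ± 0.18. At 5 h the count had turned, with 13 higher and 8 lower, where 30.0% of all gene names were higher and 23.4% lower. At 5 h of LPS 5 of the 30 fell in the Tbc1d23 line (median -0.34), where 3.18% of all gene names fell, and 25 in the CAT line (median -0.96), where 23.4% fell. The cyclin Ccne2 fell in the Tbc1d23 line (-0.79 ± 0.16) and the CAT line (-2.62 ± 0.16), as did the replication licensing gene Mcm2 (-0.48 ± 0.12 and, in the CAT line, -2.31 ± 0.12). The transcription factor E2f1 fell in the CAT line (-2.77 ± 0.23).

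Of 13 genes that regulate p53, 4 were higher and 4 lower in the Tbc1d23 line at 0 h, not far from the 25.0% and 20.1% of all gene names. The acetyltransferase Ep300 (1.04 ± 0.28) and the ubiquitin ligase Cop1 (0.96 ± 0.15) were higher and the kinase Chek2 (-0.96 ± 0.22) lower. In the Tbc1d23 line 0 of the 13 were called at 5 h of LPS in the limma fit, where 6.13% of all gene names were called. An unadjusted p under 0.05 was reached by 3 of 13, and by 15.2% of all gene names. In the CAT line Chek2 was lower at 5 h (-2.58 ± 0.22), where 1 of the 3 arrays was well above background, and Cop1 (1.11 ± 0.15) and the kinase Hipk2 (0.76 ± 0.19) rose.

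Of 13 measured members of the BCL2 family, the partners of Bax, Bbc3 and Pmaip1, 3 were higher and 4 lower in the Tbc1d23 line at 0 h, where 25.0% and 20.1% of all gene names were so called. The survival gene Bcl2l1 was higher by 2.00 ± 0.13, and the BH3-only genes Bmf (-1.42 ± 0.20) and Bcl2l11 (-1.30 ± 0.22) were lower. At 5 h of LPS Bcl2l1 rose by 0.81 ± 0.13 in the Tbc1d23 line and 3.51 ± 0.13 in the CAT line. Bmf rose by 1.11 ± 0.20 in the Tbc1d23 line and fell by 4.42 on the log2 scale in the CAT line, with an interaction of 5.52 ± 0.29.

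Other cyclin-dependent kinase inhibitors and cyclins, 8 measured, had 2 higher and 3 lower at 0 h, beside the same 25.0% and 20.1%. Cyclin D2 (Ccnd2) was higher by 6.06 ± 0.42 and cyclin D1 (Ccnd1) by 1.74 ± 0.10, while the inhibitor Cdkn2c was lower (-1.42 ± 0.17). Ccnd2 read 1.70, 1.84 and 2.28 in the Tbc1d23 line at 0 h and -3.54, -3.61 and -5.22 in the CAT line, the last value not well above background. At 5 h of LPS it differed by 0.04 ± 0.42 in the Tbc1d23 line and rose by 5.24 ± 0.42 in the CAT line. Cyclin E1 (Ccne1) differed by -0.55 ± 0.22 in the Tbc1d23 line and fell in the CAT line (-2.19 ± 0.22), as did Cdkn2c (-1.79 ± 0.17).

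To place Cdkn1a and Mdm2 among all genes, Pearson correlations with other symbols were taken over the 12 arrays of each line, as a description. The 12 arrays of a line share 3 slides and the LPS times. In the Tbc1d23 line (9861 genes well above background on all 12 arrays) the nearest to Cdkn1a were Plaur (r = 0.972), D17H6S56E-5 (0.965) and Stk10 (0.965), and to Mdm2 Psmb7 (0.911), Dennd4b (0.884) and Ppme1 (0.879). In the CAT line (10487 genes) they were Ticam1 (0.990), Plekho2 (0.987) and Slc20a1 (0.985) for Cdkn1a and Ier3 (0.993), Fosl1 (0.990) and Dusp2 (0.988) for Mdm2. No gene was among the 3 nearest in both lines or to both members.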

How the data were processed

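Microarray signals were compared for 24 one-colour (Cy3) Agilent arrays, 3 for each of 8 groups taken from the sample labels. The deposited scanner files hold spot intensity values which, per the file headers, came from Feature Extraction 10.7.1.1. The value matrix deposited by the authors holds log2 values with a common distribution on every array, and was used as an alternative. The submitters' processing notes name Agilent Feature Extraction, RMA and Partek, and their roles are not given in the sources used here.

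From the processed signal, log2 minus each array's 75th percentile was computed, outlier spots were dropped and spots of a probe averaged. Of 41174 probes, 21960 were kept: those that some group had well above background on each of its 3 arrays. Group means were fitted with limma 3.58.1 (R 4.3.3, with data.table at version 1.17.8), with Benjamini-Hochberg adjustment over the probes kept. The fit was tested on simulated data. Figures were drawn with matplotlib 3.10.9 (Python 3.11.15). Gene symbols were updated through RefSeq accessions (25097 probes matched), and probe coordinates are mm9. With 3 arrays against 3, an exact permutation test of 1 gene cannot go below p = 0.1.

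The members and gene lists were chosen with earlier results of these data known. Named genes are the 10 members and, for each further list, the 3 called genes with the largest absolute line difference at 0 h and the 3 with the largest absolute LPS response at 5 h (6 each for other p53 targets). The result of 1 gene that this rule names is not reported here. Alternatives changed the scaling, background correction, filter, probe rule, blocks, arrays in the fit and each array left out. Each slide held 1 replicate of 1 line. Same-slide arrays deviated together in the Tbc1d23 line (lowest correlation of 0.478 for 0 h against LPS times), so replicate numbers pair its times. In the CAT line these correlations were 0.155 to 0.510 for 1 h, 0.0564 to 0.511 for 3 h and 0.357 to 0.500 for 5 h. CAT arrays with different replicate numbers gave -0.479 to 0.103, so most same-slide CAT arrays also deviated together. The main fit does not use the pairing. Between lines the same number gave -0.399 to 0.0784 and pairs nothing.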

Additional observations from a re-analysis of the deposited data

Results flagged for a closer look

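The LPS responses of the lines were compared by the interaction test of the limma fit (Tbc1d23 response minus CAT response, log2). It called 3 of the 10 genes at 1 h, 4 at 3 h and 5 at 5 h. Of all gene names 2.35%, 16.4% and 23.0% were called at those times. Mdm2 gave -1.59, -1.38 and -1.44 at 1, 3 and 5 h, and Cdkn1a -1.91, -1.69 and -1.69. Pmaip1 gave -1.11 at 1 h and 0.77 at 5 h, so the sign changed with time. Bbc3 gave -1.37 at 3 h. Scaling to the array median ended all of these calls of Mdm2, Cdkn1a, Pmaip1 and Bbc3. Phlda3 gave 2.03 at 5 h, and Trp53inp1 had fitted values of 3.47 at 3 h and 4.51 at 5 h. The CAT arrays of Trp53inp1 at those times were not well above background, so only at least 3.33 and at least 3.40 can be stated.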

How the results depend on the processing

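Counts below are members called of 10, given without the share of all gene names called under the same setting. They therefore cannot show whether calls changed in these genes only or over the whole array. The array medians of the processed signal ran from 9.69 (CAT 3 h replicate 1) to 44.9 (Tbc1d23 0 h replicate 1). The 75th percentiles ran from 157 (CAT 3 h replicate 1) to 363 (Tbc1d23 1 h replicate 1). The part of that spread in the calls lost under median scaling was not tested. Scaling to the array median, which shifted the median of all gene names by -0.54 to 0.58, gave 4 for the line difference at 1 h, 1 and 0 for the Tbc1d23 line at 3 and 5 h of LPS, 3 and 4 for the CAT line at 3 and 5 h, and 0, 1 and 2 for the difference in response at 1, 3 and 5 h. Quantile normalization and the deposited values shifted that median by at most 0.14 upward and -0.16 downward. Normexp background correction gave 3, 4 and 3 for the line difference at 1, 3 and 5 h, 0 and 0 for the Tbc1d23 line at 3 and 5 h, 3 and 2 for the CAT line, and 0, 0 and 0 for the difference in response. It also turned the sign of Bax (-0.31), Bbc3 (-0.22) and Ei24 (-0.048) in the line difference at 1 h, of Cpt1c (-0.18) and Eda2r (-0.041) at 0 h, of Mdm2 in the Tbc1d23 line at 5 h (-0.36) and of the Gls2 difference in response at 5 h (-0.19). Its fit failed on 6 of 24 arrays. With those given the median background, a setting chosen after seeing the data, each count stayed within 1.5 times the main one. For the Tbc1d23 line, fitting only the groups compared gave 0 and 0 at 3 and 5 h, the run that holds both lines also 0 and 0 (1 array against 1, which says nothing about stability), and the deposited values, no filter and quantile normalization 1 each at 5 h. With the replicate block within line, the pairing that the slides give, the difference in response was called for 3, 5 and 6 members and the LPS counts of both lines were the same; the line difference cannot be fitted with it. Leaving out 1 array at a time gave 7 to 8, 8 to 9, 7 to 8 and 8 to 8 for the line difference at 0, 1, 3 and 5 h, 0 to 0, 1 to 2 and 0 to 2 for the Tbc1d23 line, 3 to 3, 4 to 5 and 4 to 7 for the CAT line, and 3 to 3, 4 to 5 and 5 to 6 for the difference in response. Except for the failed normexp fit and the fits with fewer arrays or groups, the cause was not tested. Signal near background limits Trp53inp1 in the CAT line.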
